A study of Mus musculus with 2 samples.

Results

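The genes described here encode the respiratory chain and the ATP synthase of mitochondria. They were chosen by symbol alone, by a rule that used no measured values but was set with earlier results of these arrays known. The rule took probe sets carrying exactly 1 gene symbol, with the symbol starting with Nduf, Uqcr, Atp5, Cox4i, Cox5, Cox6, Cox7 or Cox8, or being Sdha, Sdhb, Sdhc, Sdhd, Cyc1 or Cycs. This gave 184 probe sets for 92 genes, out of 18193 genes with a probe set of their own on the array. The samples are 2 cultures of MOS-J, a cell line from a mouse bone tumour, labelled as transfected with a lentivirus for human DKK1 (the DKK1 cells) or with a control lentivirus (the control cells), with 1 array each. DKK1 is a secreted inhibitor of canonical Wnt signalling. The labels' protocols describe lentiviral delivery followed by G418 selection of clones. For plasmid delivery by nucleofection, they give Blasticidin S as the selecting drug. They add a later lentiviral construct, dsRed-mito, a red fluorescent protein directed to mitochondria and driven by the cytomegalovirus promoter, with cell sorting. They do not tie any of these steps to an array, and they do not say how many clones a culture holds or whether the mitochondrial label was present in the profiled cells. Both cultures were grown in αMEM with serum.

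The respiratory chain takes electrons from NADH at complex I and from succinate at complex II, hands them over through ubiquinone to complex III, then through the small mobile protein cytochrome c to complex IV, where oxygen is reduced. Complexes I, III and IV pump protons across the inner membrane, and complex V, the ATP synthase, lets them flow back to drive ATP formation. Most subunits are encoded in the nucleus, while a small set comes from mitochondrial DNA and was not analysed here, and complex I needs dedicated assembly factors (the Ndufaf genes). In tumour cells this pathway stands beside glycolysis as a source of ATP.

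Values are MAS5 signals on a linear scale, 1 per probe set. The difference of a probe set is its log2(signal + 16.6) in DKK1 cells less the same quantity in control cells, and that of a gene averages its measured probe sets. Probe sets were taken as measured if their signal, averaged over both arrays, was at least 71.3, the median of such averages. Genes are termed higher or lower if they differed by 1 or more on the log2 scale (2-fold) and all their measured probe sets lay on that side. With 1 array per group no value has a replicate error and no test was possible, so each statement compares these 2 arrays. The median signal was 78.6 on the DKK1 array and 62.6 on the control array. Labelled spike-in controls differed between the arrays in both directions, with a median log2 ratio of -0.37 for the 18 hybridisation controls and 0.64 for 20 poly-A controls that pass through the labelling step, so the zero point of every difference depends on which controls are taken as equal. The 3' to 5' signal ratio was 0.759 for Gapdh and 1.25 for Actb on the DKK1 array, and 0.823 for Gapdh and 1.61 for Actb on the control array. Of the osteoblast lineage markers, 6 of 7 genes on the array were measured. Col1a1, Col1a2, Sparc, Alpl and Sp7 lay between 0.05 and 0.94 and were not called. Col1a1 had an SD of 1.05 between 2 probe sets, its brightest at 6263 in DKK1 cells and 2150 in control cells. The brightest of Col1a2 went the other way, at 24640 in DKK1 cells and 31456 in control cells. On brightest probe sets 1 of the 6 markers was called higher, and 2 were when scaled on the hybridisation controls. Phex was called lower, at 1.97 in DKK1 cells and 199.9 in control cells, or at least 2.80-fold with the dim signal raised to the filter. The call of Phex ended without the filter (-1.70, with probe sets on both sides). Of the leukocyte markers 4 of 10 were measured, all above 0. Lyz2 was called higher at 136 in DKK1 cells and 14.5 in control cells, or at least 1.91-fold. Its control signal was below the filter, and its call ended with dim signals raised to the filter (0.93). Lyz2 was not measured with a stricter filter, after median centring, quantile normalization or loess, or when scaled on the poly-A controls. Ptprc was at 4.24 in DKK1 cells and 11.7 in control cells. The signals of the 10 summed to 1171 in DKK1 cells and 756 in control cells. Of the epithelial markers 3 of 6 were measured, all above 0, with a sum over the 6 of 584 in DKK1 cells and 476 in control cells. Of the endothelial markers only Kdr was measured, at 0.68, with a sum over the 6 of 194 in DKK1 cells and 216 in control cells. Of the striated muscle markers 2 of 10 were measured. The part of other cell types in the results was not tested.

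With the signals scaled as deposited, respiratory chain and ATP synthase genes differed little between the DKK1 and control cells. Of the 92 genes, 85 were measured, of which 1 passed 2-fold upward and 5 passed it downward in DKK1 cells. Among all 11058 measured genes 11.7% were called higher and 6.91% lower, 18.6% in all, against 1.18% higher and 5.88% lower among the 85. A smaller difference of 1.5-fold in the same sense was reached upward by 5 members (5.88%, against 23.6% of all genes) and downward by 11 (12.9%, against 15.6% of all genes, with 39.2% of all genes past it on either side). The differences of 69 of the 85 genes lay within 1.5-fold (81.2%), against 60.1% of all measured genes. Their median was -0.10, with the middle 50% from -0.33 to 0.11, while the median of all measured genes was 0.10, with the middle 50% from -0.36 to 0.56.

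These are bright genes, and their brightness bears on the comparison with all genes. A mean signal of at least 1000 was reached by 78 of the 85 members (91.8%) and by 3551 of the 11058 measured genes (32.1%). Of those 3551 genes 10.3% were called higher and 9.41% lower, or 19.7% together, with a median of -0.04. At 1.5-fold these shares were 20.1%, 21% and 41.1%. Of the 78 bright members 5.13% were called, with a median of -0.08. The gap of -0.20 between the members' median and that of all genes was -0.21 on either spike-in scaling. It was 0.01 after loess, which removes differences that depend on brightness. Scaled on the hybridisation controls 5 members were higher and 2 lower, against 22.0% and 3.48% of all genes, and scaled on the poly-A controls 0 were higher and 20 lower, against 4.13% and 24.3% of all genes. The direction of the whole group is therefore not settled by these arrays, and the differences between members, which such a scaling moves nearly alike, are described below.

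**Figure D1:**
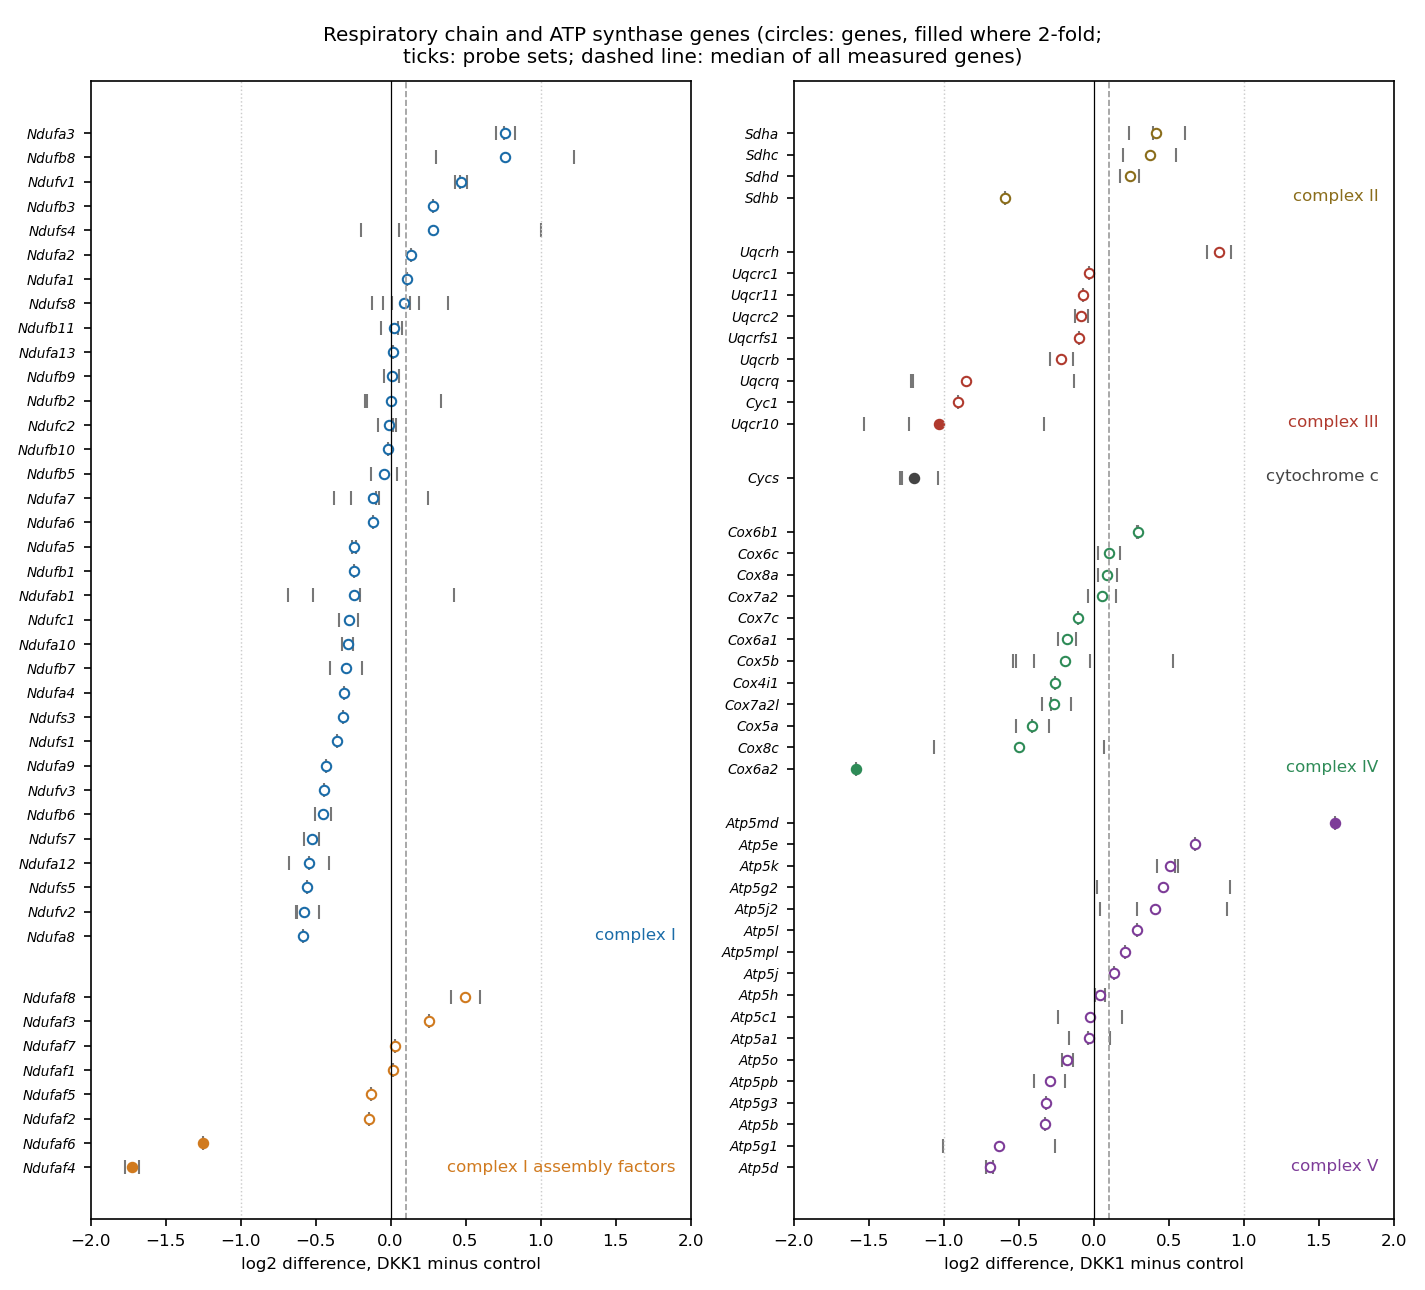
The log2 difference (x axis, DKK1 minus control) of each of the 85 measured genes (rows), grouped by complex. Circles are gene means, filled where the gene was called 2-fold, grey ticks are its measured probe sets, and the dashed line is the median of all measured genes at 0.10; most circles lie within 0.58 of 0, with Ndufaf4, Cox6a2, Ndufaf6, Cycs and Uqcr10 far to the left and Atp5md far to the right.

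The 5 lower genes were complex I assembly factors, the electron carrier cytochrome c, a small complex III subunit and a muscle isoform of complex IV. Ndufaf4, a complex I assembly factor, had signals of 864 and 529 on the DKK1 array, against 2991 and 1730.2 on the control array. Both of its probe sets differed by more than 3-fold, and the gene's log2 difference of -1.73 (SD 0.07 between 2 probe sets) was the lowest of all members. Ndufaf6, another assembly factor of complex I, measured 518 in DKK1 cells and 1256 in control cells, a difference of -1.25 on its 1 probe set.

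Cytochrome c, encoded by Cycs, carries electrons between complexes III and IV and starts apoptosis when it leaks into the cytosol. The 3 measured Cycs probe sets had signals of 14782, 4959 and 3371 in DKK1 cells, against 30299.8, 12032 and 8270.3 in control cells. All of them passed 2-fold downward, giving a difference of -1.20 (SD 0.14). A further Cycs probe set was below the filter, at 20.5 in DKK1 cells and 31.5 in control cells, and with it included the difference was -0.99. Scaled on the hybridisation controls Cycs was at -0.83 and Ndufaf6 at -0.89, so both calls ended there, whereas Ndufaf4 was called lower under each of the 12 alternatives tried.

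Uqcr10, a small subunit of complex III, was called on probe sets that disagreed in size. Its signals were 1112, 1425 and 4254 in DKK1 cells, against 3241, 3374 and 5344 in control cells. All were lower in the DKK1 cells, by -1.53, -1.23 and -0.33 on the log2 scale, and the mean of -1.03 had an SD of 0.63. On the brightest probe set alone the call ended (-0.33), as it did after quantile normalization (-0.98), loess (-0.96) and hybridisation scaling (-0.66).

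Cox6a2, the isoform of a complex IV subunit typical of heart and skeletal muscle, had a signal of 145 in DKK1 cells and 470.0 in control cells, a difference of -1.59. A second probe set, just below the filter, was at 13.97 in DKK1 cells and 126 in control cells. Both were lower in the DKK1 cells. Of the 10 striated muscle markers on the array 2 were measured, with Acta1 at 168 in DKK1 cells and 72.4 in control cells and Actc1 at 85.0 in DKK1 cells and 91.6 in control cells. The signals of all 10, each gene's brightest probe set, summed to 577 in DKK1 cells and 373 in control cells, with Myog at 8.30 in DKK1 cells and 46.3 in control cells. The part of muscle-type expression in the Cox6a2 difference was not tested.

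The 1 higher gene was Atp5md, which encodes a small membrane subunit of the ATP synthase found where synthase dimers meet. Its signal was 10364 in DKK1 cells and 3389 in control cells, a difference of 1.61, or 3.05-fold, on 1 probe set. Under the alternatives its difference ran between 0.97 and 1.98, and its call ended with the poly-A scaling, at the low end.

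**Figure D2:**
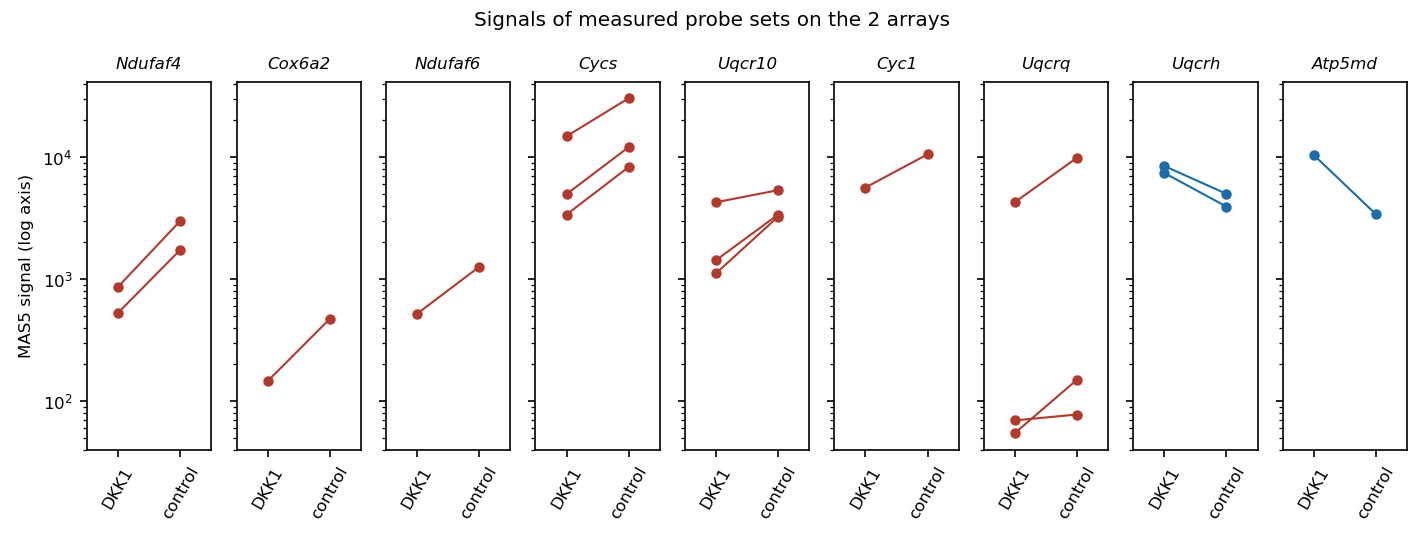
MAS5 signal (log axis) of each measured probe set of 9 genes on the DKK1 array (left point) and the control array (right point), joined by a line, red where lower and blue where higher in DKK1 cells. All 3 Cycs probe sets and both Ndufaf4 probe sets run in parallel, whereas the 3 Uqcr10 probe sets and the 3 Uqcrq probe sets have unlike slopes.

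The promoters of Cycs, Ndufaf4 and Atp5md are shown because these genes were called on probe sets that agreed, or on 1 probe set, and had a promoter entry in the RefSeq table, and because respiratory genes are known for binding sites of NRF1, of ETS family factors such as GABP and, in Cycs, of CREB. The sequences are the 250 bases before the annotated start in GRCm38.p6, 5' to 3' on the gene's strand, and they describe the gene, not the transcripts that the 3' probe sets measured. Capitals mark matches on either strand to an NRF1 core (GCATGCGC), an ETS core (CCGGAAG) or a cyclic AMP response element (TGACGTCA), and matches to different motifs do not overlap here. The windows are chr6:50566570-50566819 on the minus strand for Cycs, chr4:24897833-24898082 on the plus strand for Ndufaf4 and chr19:47090648-47090897 on the minus strand for Atp5md.
Cycs: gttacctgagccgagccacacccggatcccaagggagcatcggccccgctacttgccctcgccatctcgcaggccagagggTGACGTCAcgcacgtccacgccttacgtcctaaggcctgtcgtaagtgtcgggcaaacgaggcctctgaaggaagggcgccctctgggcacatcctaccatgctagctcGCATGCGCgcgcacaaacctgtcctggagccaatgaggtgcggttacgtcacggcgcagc
Ndufaf4: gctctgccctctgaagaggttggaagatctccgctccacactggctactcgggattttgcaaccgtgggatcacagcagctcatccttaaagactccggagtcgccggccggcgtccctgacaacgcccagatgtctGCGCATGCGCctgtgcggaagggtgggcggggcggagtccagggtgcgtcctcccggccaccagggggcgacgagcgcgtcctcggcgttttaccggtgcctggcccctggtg
Atp5md: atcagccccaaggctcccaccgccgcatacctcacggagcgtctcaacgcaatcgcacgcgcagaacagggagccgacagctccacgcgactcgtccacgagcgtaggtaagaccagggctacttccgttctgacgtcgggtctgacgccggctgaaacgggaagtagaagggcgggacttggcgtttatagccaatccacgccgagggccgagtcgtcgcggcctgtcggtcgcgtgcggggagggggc

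Cycs held 1 NRF1 core and 1 response element, Ndufaf4 held a palindrome read as 2 overlapping NRF1 cores, and the Atp5md window held no match to these letters. Uqcr10, a called member with an entry whose probe sets disagreed in size, is not shown. Its window held no match either. Of the 70 measured members with a promoter entry, 9 (12.9%) held the NRF1 core, against 5.22% of 8982 measured genes and 2.56% of 27025 genes with an entry. The ETS core was found in 14 of the 70 (20.0%), against 16.2% of measured genes and 7.83% of all genes with an entry. The response element was found in 4 of the 70 (5.71%), against 3.03% of measured genes and 1.77% of all genes with an entry. A match describes the letters of the window and shows no binding.

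None of the 34 measured complex I subunits was called, against 18.6% of all measured genes and 19.7% of those with a mean signal of at least 1000. Their median was -0.18, with 22 (64.7%) below 0 and 12 above, against 44.1% of all measured genes below 0. The catalytic core, which holds the flavin and the iron-sulfur clusters, had 6 measured genes with a median of -0.34. Ndufv1, whose protein binds NADH and flavin, had signals of 5011, 4810.0 and 3035 in DKK1 cells, against 3625, 3569.7 and 2128 in control cells. Its probe sets all lay above the control, at 0.47 (SD 0.04), while its partner in the same module went the other way. Ndufv2 had signals of 6786, 5219.7 and 5119 in DKK1 cells, against 9438, 8041 and 7949.8 in control cells, a difference of -0.58 (SD 0.09). These subunits of 1 enzyme thus differed by about 1 on the log2 scale from each other. The pooled SD between probe sets of 1 member gene was 0.30, but it holds no error between cultures or arrays. Whether the gap exceeds such an error was not tested. Among the other core genes Ndufs7 was at -0.53, Ndufs1 at -0.36, Ndufs3 at -0.32 and Ndufs8 at 0.09.

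The 28 accessory subunits of complex I, which surround the core, had a median of -0.11. The highest were Ndufa3 and Ndufb8, both subunits of the membrane arm. Ndufa3 had signals of 11688, 9995 and 101 in DKK1 cells, against 6899, 5612 and 55.3 in control cells. Its difference of 0.76 (SD 0.06) was alike on bright and dim probe sets. Ndufb8 had the same mean of 0.76 but an SD of 0.65, from a bright probe set at 8514 in DKK1 cells and 6895 in control cells and a dim one at 304 in DKK1 cells and 121 in control cells. The lowest were Ndufa8 (-0.59, with 5747 in DKK1 cells and 8631 in control cells) and Ndufs5 (-0.56, with 5436 in DKK1 cells and 7998 in control cells), and Ndufa12 was at -0.55 (SD 0.13 between 3 probe sets). Ndufa4, named as a complex I gene but known as a subunit of complex IV, was at -0.31, with signals of 12023 in DKK1 cells and 14939.6 in control cells. Its relative Ndufa4l2, known as a hypoxia-induced gene, was below the filter at 31.8 in DKK1 cells and 12.6 in control cells. In Ndufab1, the mitochondrial acyl carrier protein, the 4 measured probe sets ran from -0.68 to 0.42, and in Ndufs4 the 3 probe sets ran from -0.20 to 1.0. In both, the probe set above 0 by most was a dim one, at 140 and 316 in DKK1 cells.

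The 8 measured complex I assembly factors fell into 2 that were called lower, Ndufaf4 and Ndufaf6 (25%, against 6.91% of all genes), and 6 within 1.5-fold. The 6 were Ndufaf2 at -0.14, Ndufaf5 at -0.13, Ndufaf1 at 0.01, Ndufaf7 at 0.03, Ndufaf3 at 0.26 and Ndufaf8 at 0.50. Their median was -0.06, so the assembly factors as a group did not share the difference of Ndufaf4 and Ndufaf6. Of 35 measured assembly factors for the complexes outside the symbol rule, 1 was higher and 1 lower (2.86% each, against 11.7% and 6.91% of all genes), with a median of 0.01. Uqcc3, which acts in complex III assembly, had a signal of 2715 in DKK1 cells and 1333 in control cells (1.02), and Acad9, which acts in complex I assembly, was at -1.17 (SD 0.46 between 2 probe sets). The call of Uqcc3 ended under 3 alternatives and that of Acad9 under 4, where a dim probe set brought Acad9 to -0.18 without the filter.

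Complex II, succinate dehydrogenase, is the only complex with all subunits encoded in the nucleus. None of its 4 genes was called, against 18.6% of all measured genes. Sdha, the flavoprotein that oxidises succinate, had signals of 3714, 3094 and 119 in DKK1 cells, against 3154, 2349 and 72.2 in control cells, a difference of 0.41 (SD 0.19). The membrane anchor genes were at 0.37 (Sdhc, SD 0.25 between 2 probe sets) and 0.24 (Sdhd, SD 0.09 between 2). Sdhb, the iron-sulfur subunit that joins Sdha to the anchor, went the other way, at 4887 in DKK1 cells and 7381 in control cells, a difference of -0.59 on 1 probe set. The complex's median was 0.31 as deposited, -0.02 after median centring and -0.33 on the poly-A scaling. Relative to the median of all genes it was 0.20 in each of these settings, and between 0.06 and 0.34 under the alternatives.

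Complex III, which oxidises ubiquinol and reduces cytochrome c, had 8 of 9 genes below 0, against 44.1% of all measured genes. The differences ran from -1.03 to 0.83, with a median of -0.10. Scaled on the hybridisation controls the complex's median was 0.27. Relative to the median of all genes it was -0.20 as deposited, 0.0005 after quantile normalization and 0.01 after loess. Cyc1, the cytochrome c1 that passes electrons to cytochrome c, had a signal of 5615 in DKK1 cells and 10514.5 in control cells, a difference of -0.90 on 1 probe set. It stayed under 2-fold as deposited and passed it after median centring (-1.23) and on the poly-A scaling (-1.54). Uqcrq, a small subunit at the ubiquinone site, had signals of 4270.1, 54.6 and 69.3 in DKK1 cells, against 9844, 149 and 77.4 in control cells. Its bright probe set was at -1.20, its mean was -0.85 (SD 0.62), and on the brightest probe set alone it would have been called. Uqcrh, the hinge protein beside cytochrome c1, differed in the other direction, with signals of 8424 and 7389 in DKK1 cells, against 4985 and 3915 in control cells, a difference of 0.83 (SD 0.11). The remaining subunits lay close to 0: Uqcrb at -0.22, the Rieske iron-sulfur protein gene Uqcrfs1 at -0.10, the core protein genes Uqcrc2 at -0.08 and Uqcrc1 at -0.03, and Uqcr11 at -0.07. The difference in cytochrome c and cytochrome c1 was thus not shared by the core proteins or the Rieske protein of the same enzyme.

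In complex IV, cytochrome c oxidase, the 10 measured subunits of the general type all lay within 1.5-fold, from Cox5a at -0.41 to Cox6b1 at 0.29. Cox4i1, the regulatory subunit isoform found in most tissues, had a signal of 19278 in DKK1 cells and 23081 in control cells (-0.26). Cox5a had signals of 18509, 13313 and 10934 in DKK1 cells, against 24604.5, 16375 and 15691.5 in control cells, all lower by a similar amount (SD 0.11). Cox5b was at -0.19 with 5 probe sets running from -0.54 to 0.53, where the one above 0 was dim at 87.6 in DKK1 cells and 55.6 in control cells. Cox6a1, the general counterpart of Cox6a2, was at -0.18 (SD 0.08), with signals of 24397 and 11558 in DKK1 cells and 28745 and 12561 in control cells. Cox7a2l, which joins complexes III and IV into supercomplexes, was at -0.26, Cox7c at -0.10, Cox7a2 at 0.06, Cox8a at 0.09 and Cox6c at 0.10. The Cox7c value rests on a dim probe set at 132 in DKK1 cells and 143 in control cells.

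Isoforms of complex IV that are known from single tissues were mostly dim in both cultures. Of 7 such genes Cox6a2 and Cox8c were measured. Cox8c, known from testis, had signals of 337 and 41.2 in DKK1 cells, against 321 and 104 in control cells, so its mean of -0.50 came from the dimmer probe set and its brightest gave 0.07. Below the filter were Cox4i2 (10.3 in DKK1 cells and 62.9 in control cells), Cox7a1 (47.7 in DKK1 cells and 76.6 in control cells), Cox6b2 (44.8 in DKK1 cells and 31.9 in control cells), Cox7b2 (33.3 in DKK1 cells and 36.7 in control cells) and Cox8b (5.43 in DKK1 cells and 13.9 in control cells). Ndufb4 was the last of the 7 members not measured by a probe set of its own, after these 5 and Ndufa4l2, with signals of 31.0 in DKK1 cells and 6.45 in control cells.

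The 17 ATP synthase genes had a median of 0.04, with 9 above and 8 below 0. Of all 11058 measured genes 6185 were above 0. All 5 measured genes of small membrane subunits, which lie beside the c ring and shape the dimer, were above 0, with a median of 0.41. Besides Atp5md these were Atp5k, Atp5j2, Atp5l and Atp5mpl. Atp5k, subunit e, had signals of 8514, 7454 and 4243 in DKK1 cells, against 6341, 5116 and 2874 in control cells, a difference of 0.51 (SD 0.07). Atp5j2, subunit f, was at 0.41 (SD 0.44), with 0.89 on a dim probe set and 0.04 on its brightest. Atp5l, subunit g, was at 0.29, with 10221.5 in DKK1 cells and 8347 in control cells, and Atp5mpl was at 0.21. After median centring 3 of the 5 were above 0 and on the poly-A scaling only Atp5md was. All 5 stayed above the median of all genes in both, but these scalings shift all genes nearly alike. On the brightest probe set 4 of the 5 lay above that median. This grouping by place was made with the values in view.

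In the catalytic head and central stalk of the ATP synthase the genes differed from each other. Atp5a1 and Atp5b, the alpha and beta subunits that bind nucleotides, were at -0.03 (SD 0.14 between 3 probe sets) and -0.33, and the gamma subunit gene Atp5c1 was at -0.03. Atp5d, the delta subunit of the central stalk, had signals of 8062 and 4709 in DKK1 cells, against 13289 and 7490.1 in control cells, a difference of -0.69 (SD 0.04). Atp5e, the epsilon subunit that sits next to it in the stalk, was on the other side at 0.68, with 9419.6 in DKK1 cells and 5884 in control cells. The peripheral stalk genes Atp5pb (-0.29), Atp5o (-0.17), Atp5h (0.04) and Atp5j (0.14) lay close to 0.

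The c ring that turns in the membrane is built from 1 protein that 3 genes encode, and these genes did not move alike. Atp5g1 had signals of 4738 and 98.8 in DKK1 cells, against 9525 and 121 in control cells, a difference of -0.63 (SD 0.53), or -1.005 on the brightest probe set. Atp5g3 was at -0.32, with 17978 in DKK1 cells and 22454.9 in control cells. Atp5g2 was at 0.46, but its bright probe set was at 0.02, with 15611 in DKK1 cells and 15374.5 in control cells, and its dim one at 0.91.

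Probe sets of the same gene described the technical agreement within these arrays. Of the 50 members with at least 2 measured probe sets, 14 had probe sets on both sides of 0. The pooled SD between probe sets of a gene was 0.30 for members and 0.45 for all measured genes. In 4 members, Ndufab1, Ndufs4, Cox5b and Cox8c, the probe sets lay on both sides and at least 1 apart. Many nuclear respiratory genes have processed pseudogenes, and probe sets with the suffixes _x_at, _s_at and _a_at can share probes with other transcripts or with transcript variants. Without these, 65 members were measured, 2 were higher (Atp5md and Ndufb8) and the same 5 were lower. These were 3.08% and 7.69%, against 12% and 6.79% of all genes.

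Other genes of mitochondrial energy supply were read from 8 lists with measured genes. Enzymes around pyruvate and the tricarboxylic acid cycle, which feed the chain with NADH and succinate, had 3 of 23 genes higher and 2 lower (13.0% and 8.70%, against 11.7% and 6.91% of all genes), with a median of -0.38. The called ones were mostly regulators of pyruvate dehydrogenase. The inhibitory kinase gene Pdk1 had 1166 in DKK1 cells and 3595 in control cells on its brightest probe set (-1.43, SD 0.41 between 3). Its relative Pdk4 was higher, at 1115 in DKK1 cells and 250.04 in control cells (2.09), and the activating phosphatase gene Pdp1 was higher too, at 1138 in DKK1 cells and 496 in control cells (1.40). Pdk2 had 132 in DKK1 cells and 13.6 in control cells, where the control signal was below the filter, so it was at least 1.85-fold higher with that signal raised to the filter. Hence the kinase genes of this complex did not share a direction. The call of Pdk1 ended on the hybridisation scaling (-0.97), that of Pdk2 with dim signals raised to the filter (0.89) and that of Pdp1 on the poly-A scaling (0.77). Pdk2 was not measured with a stricter filter, after median centring, quantile normalization or loess, or on the poly-A scaling.

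Regulators of respiratory genes had 2 of 12 lower and 1 higher (16.7% and 8.33%, against 6.91% and 11.7% of all genes). The coactivator gene Ppargc1b had 98.3 in DKK1 cells and 367 in control cells (-1.74) and was called lower wherever it was measured. Esrrb, an orphan nuclear receptor, had 17.4 in DKK1 cells and 132 in control cells, at least 1.85-fold lower, and its call ended without the filter (-0.68) and with dim signals raised to the filter (-0.88). Nrip1, a corepressor, averaged 1.05 with an SD of 1.19 between 5 probe sets, and its call ended under 9 of the 12 alternatives. Named outside the rule for their known roles, Nrf1 was at -0.12 (SD 0.49), Gabpa at 0.08 (SD 0.81), Esrra at 0.19 (SD 0.56) and Ppargc1a at -0.43. Of 16 genes of mitochondrial DNA maintenance and transcription 1 was lower (6.25%, against 6.91% of all genes), Lrpprc, which stabilises mitochondrial messenger RNA, with 599 in DKK1 cells and 1611 in control cells (-1.40). Tfam, which packages mitochondrial DNA and was likewise named outside the rule, was at -0.95 (SD 0.12 between 2 probe sets).

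Haem and iron-sulfur cluster synthesis, which make the redox centres of the chain, had 3 of 18 genes lower and 1 higher (16.7% and 5.56%, against 6.91% and 11.7% of all genes), with a median of -0.06. Hspa9, a matrix chaperone that also serves cluster transfer, had 4099 in DKK1 cells and 15103 in control cells on its brightest probe set (-1.73, SD 0.15 between 3). The haem synthesis genes Alad (-1.18, with 462 in DKK1 cells and 1066 in control cells) and Cpox (-1.16, SD 0.12 between 2) were lower. Without the filter the calls of Hspa9 (-1.28, with a dim probe set on the other side) and Alad (-0.45) ended, and on the hybridisation scaling those of Alad (-0.82) and Cpox (-0.80). Nfs1, the cysteine desulfurase, averaged 1.17 with an SD of 1.03 between 3 probe sets. Its brightest gave 0.26, and its call ended under 8 of the 12 alternatives, among them median centring (0.30), quantile normalization (0.47) and loess (0.49). No gene was called among 10 carriers and channels, 17 genes of ubiquinone synthesis and electron transfer to it, or 16 of cristae organisation. Of all measured genes 18.6% were called. The medians of these lists were -0.10, -0.03 and -0.15. Some alternatives did call genes here, such as 2 cristae genes lower after median centring. In the ubiquinone list 1 was lower after loess, and 1 was higher and 1 lower on the brightest probe set.

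**Figure D3:**
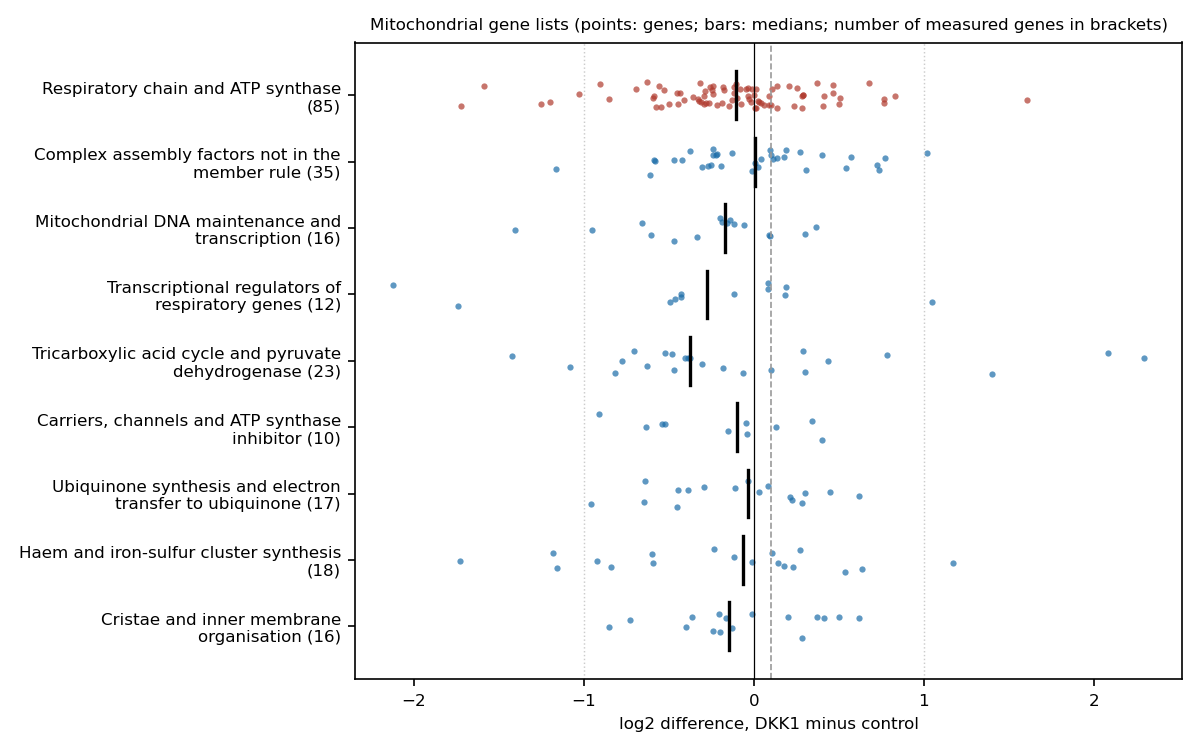
Log2 difference (x axis, DKK1 minus control) of each measured gene (points) in the respiratory chain and ATP synthase group and in 8 other mitochondrial lists (rows), with bars at the medians and a dashed line at the median of all genes. The medians lie between -0.38 and 0.01, and the widest spread is that of the tricarboxylic acid cycle and pyruvate dehydrogenase list.

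Mitochondrial ribosomal proteins, another large assembly made mostly of nuclear gene products, were set beside the respiratory genes. Of their 76 genes, all measured, 58 were below 0, 9 were lower and 1 was higher (11.8% and 1.32%), with a median of -0.35, against -0.10 for the respiratory chain and ATP synthase genes. Over all measured genes 44.1% were below 0, 6.91% were lower and 11.7% higher. Over the genes with a mean signal of at least 1000 these shares were 52.4%, 9.41% and 10.3%. Relative to the median of all genes they lay at -0.45, and at -0.31 and -0.30 after quantile normalization and loess. The difference between the 2 groups of genes was not tested, since genes of 2 arrays are no replicates.

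**Figure D4:**
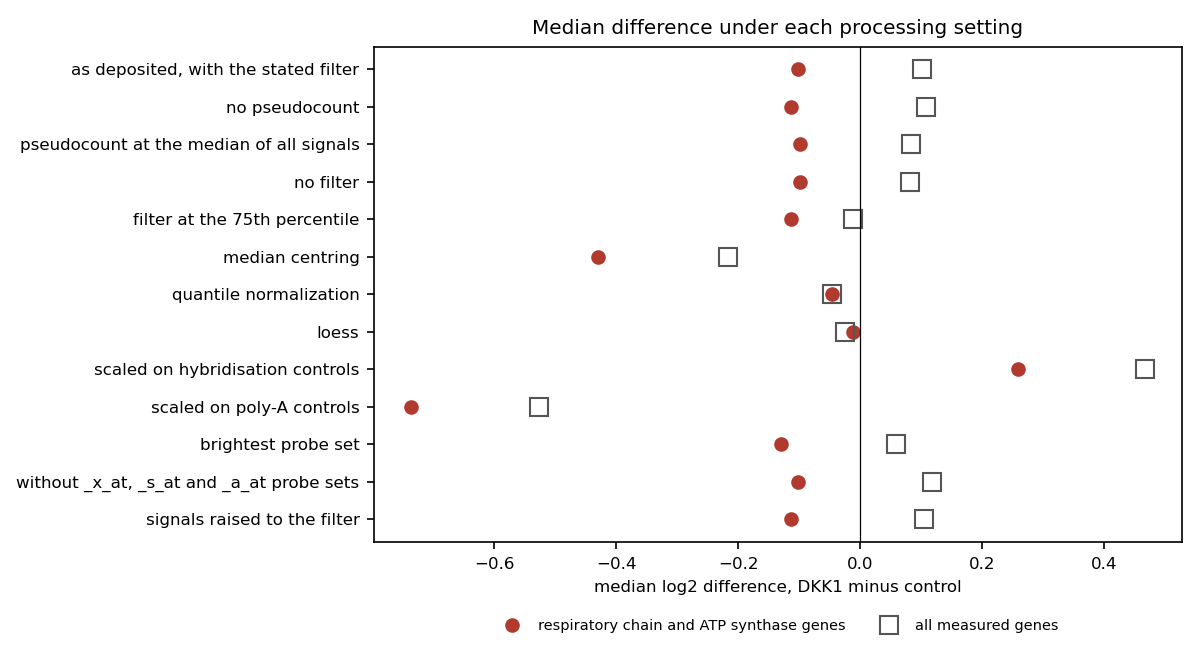
Median log2 difference (x axis, DKK1 minus control) of the respiratory chain and ATP synthase genes (filled circles) and of all measured genes (open squares) under each processing setting (rows). The members' median runs from -0.74 with poly-A scaling to 0.26 with hybridisation scaling, and the squares move with it; the symbols coincide after quantile normalization and nearly so after loess.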

How the data were processed

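RNA of 2 MOS-J cultures was hybridised to 1 expression array each. The authors deposited intensity values, 1 signal per probe set for 45101 probe sets, and the submitters' processing notes name MAS5 (version: not given in the sources used here). After trimming 2% at each end, signals averaged 500.0 on either array, which fixes the overall level by construction. Symbols came from the platform annotation. Of 34945 probe sets with 1 symbol, 34741 matched a RefSeq gene ID (GRCm38.p6). The pseudocount of 16.6 was the 25th percentile of all signals, which moves differences of dim genes towards 0. The table holds no detection calls.

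Calls and differences were computed with Python 3.11.15. The calling rule was run on simulated data with planted changes larger than 2-fold in bright genes. The simulated scatter was smaller than 0.45, the pooled SD between probe sets. Such changes pass the rule nearly by construction. The run therefore does not show how the rule does for dim genes or differences near 2-fold. How often a 2-fold call is wrong on these arrays was not tested. Promoter motifs were searched with the sequences in view. Alternatives changed the pseudocount, filter, scaling (loess with statsmodels 0.14.6), probe set summary and floor. The member rule used symbols alone, but it and the lists were set with earlier results of these arrays known. Genes named were called members, the 3 highest and 3 lowest of each complex, isoform pairs, members with discordant probe sets, and called genes of each list, up to 4. Batch and group cannot be told apart. The array number limits the precision.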

Additional observations from a re-analysis of the deposited data

How the results depend on the processing

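With 1 array per group a change was counted as a move where it exceeded 0.45, the pooled SD between probe sets of a gene, or 1.5 times a count. No paired analysis was possible because each group has 1 array. Scaled on the poly-A controls, the members' median was -0.74, and the medians were -0.82 for complex I, -0.33 for complex II, -0.74 for complex III, -1.84 for cytochrome c, -0.74 for complex IV, -0.60 for complex V and -0.68 for the complex I assembly factors, with 0 members higher and 20 lower. Scaled on the hybridisation controls, 5 were higher and 2 lower. After median centring 8 were lower, and without the filter, or without probe sets of the 3 shared suffixes, 2 were higher. The other alternatives left these counts within 1.5 times and these medians within 0.45. The spike-in scalings shift all genes by a constant, which by construction moves such counts. Called higher against lower, all genes split 11.7% to 6.91% as deposited, 6.75% to 13.0% after median centring, 8.77% to 8.82% after quantile normalization, 9.02% to 8.50% after loess, 22.0% to 3.48% on the hybridisation controls and 4.13% to 24.3% on the poly-A controls. Of the 6 called members, between 3 (hybridisation scaling) and 6 were called under each of the 12 alternatives, with none turning direction. Across the 45 named members 8 values lost a call and 22 gained one. A further 35 values of uncalled members moved by more than 0.45, and 465 values were counted as the same. The depth of an array is its signal over background, and 7 members had no probe set of their own above the filter.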

Other observations

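Respiratory genes also share 10 probe sets with another symbol, 7 of them with a copy or pseudogene of the same name and 3 with another gene, so these stood outside the symbol rule. Probe sets shared by Ndufb4 and its copies Ndufb4b and Ndufb4c had signals of 5983 and 5545 in DKK1 cells, against 5993 and 6106 in control cells, differences of -0.0025 and -0.14. The one shared by Ndufs6 and Ndufs6b was at 6236 in DKK1 cells and 6824 in control cells (-0.13). The brighter one shared by Ndufa11 and Ndufa11b was at 4214 in DKK1 cells and 5074 in control cells (-0.27). Those shared with pseudogenes were at -0.38 for Ndufs5, beside -0.56 for its own probe set, and at -0.41 for Ndufab1, beside a mean of -0.24 for its own. The other 4 were dim: 1 for Ndufa11 (108 in DKK1 cells and 81.5 in control cells), 1 for Ndufb2 with Adck2 (128 in DKK1 cells and 193 in control cells), and 2 for Ndufa13 with Yjefn3, both below the filter. No measured one reached 1.5-fold.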
